A study of Homo sapiens with 28 samples.

Results

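Histone H3 acetylated at lysine 27 (H3K27ac) was compared between senescent fibroblasts depleted of FOXF1 and FOXF2 (siFOXF1/2, 2 libraries) and proliferating fibroblasts (Pro, 2 libraries). These 4 libraries were chosen by sample title from 28 in all, and their question was which acetylation changes of senescence persist without FOXF1/2 and which return to the proliferating state. All libraries came from IMR-90 ER:Ras cells, human fetal lung fibroblasts with an oncogenic Ras that 4-hydroxytamoxifen (4-OHT) switches on. By titles and treatment labels, siFOXF1/2 cells were senescent cells transfected with small interfering RNA against FOXF1 and FOXF2 and senescent cells (Sen) had the control RNA, while the Pro titles stand for proliferating cells; induction used 100 nM 4-OHT for 6 days. The characteristics of the Pro samples nevertheless give the same control RNA, 4-OHT treatment and senescent cell type as those of the Sen samples, so that the Pro group rests on the titles. Sen cells were measured in 4 H3K27ac libraries, replicates 1 and 2 in the same deposit as the siFOXF1/2 and Pro libraries and replicates 3 and 4 in a second one, told apart by record numbers. The model is 1 cell line with a drug-switched Ras and a transient knockdown by lipid transfection, and nothing in the labels says that replicates came from separate cultures.

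H3K27ac is laid down by the acetyltransferases p300 and CBP and marks active enhancers and promoters. FOXF1 and FOXF2 are forkhead transcription factors of the lung mesenchyme, which gives rise to lung fibroblasts. Phosphorylated c-JUN (p-c-JUN) is an activated subunit of AP-1, a transcription factor that binds many enhancers of senescent fibroblasts. Senescence stops cell division for good and is accompanied by a rearrangement of active enhancers.

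The mark was mapped by CUT&RUN, in which a nuclease tethered to an antibody releases the DNA beside the antigen, and each library was represented by the list of peaks its authors called. The siFOXF1/2 lists held 84673 and 71746 peaks covering 55.5 and 41.8 Mb, against 84304 and 89329 peaks covering 55.8 and 58.0 Mb in the Pro lists. Sen replicates 1 to 4 had 84864, 60862, 48859 and 26694 peaks. Depth in reads is unknown; the background of fragments per kb, solved from the peaks' own statistics, was 6.81 and 5.64 in siFOXF1/2, 8.10, 6.59, 4.15 and 3.03 in Sen replicates 1 to 4 and 7.96 and 8.28 in Pro libraries. The siFOXF1/2 libraries thus had the lower background of the 2 groups compared, and its part in the lengths of the lists was not tested. The number of peaks in siFOXF1/2 minus that in Pro libraries was -0.15 ± 0.127 on the log2 scale (SE, n = 2 in each group), which an exact two-sided permutation test did not tell from 0 (p = 0.667; the smallest p that 2 against 2 libraries allow is 0.33). The FOXF1 lists, a check of the knockdown, held 186 and 133 peaks in siFOXF1/2 cells, 13603 and 40537 in Sen cells and 3441 and 11061 in Pro cells. The narrowest FOXF1 peak was 76 bp long in both siFOXF1/2 lists against 190 to 212 bp in the others. Whether all these lists were called with the same settings is not known, and the cause of this difference was not tested. The p-c-JUN lists held 75005 and 86110 peaks in siFOXF1/2 cells, 70177 and 93443 in Sen cells and 24808 and 32136 in Pro cells.

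Peaks of the siFOXF1/2 and Pro libraries were joined into 133972 regions wherever they overlapped by at least 1 bp. A region was called gained when both siFOXF1/2 libraries and neither Pro library held a peak, and lost when both Pro libraries and neither siFOXF1/2 library did. By this rule 7473 regions were gained (5.58% of all) and 12163 were lost (9.08%), or 1.63 lost for each gained, while 39190 regions (29.3%) were held by all 4 libraries. Regions held by exactly 1 siFOXF1/2 and 1 Pro library numbered from 977 to 2724 over the 4 such pairs, below both counts. Of 63134 regions common to both Pro libraries, siFOXF1/2 replicates 1 and 2 had a peak in 76.2% and 66.6%; of 52558 common to both siFOXF1/2 libraries, the Pro replicates had a peak in 79.5% and 80.8%. With each list limited to its 71746 best peaks by −log10 q, 8216 regions were gained (7.21%) and 9757 lost (8.57%), so the excess of losses was smaller.

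**Figure D1:**
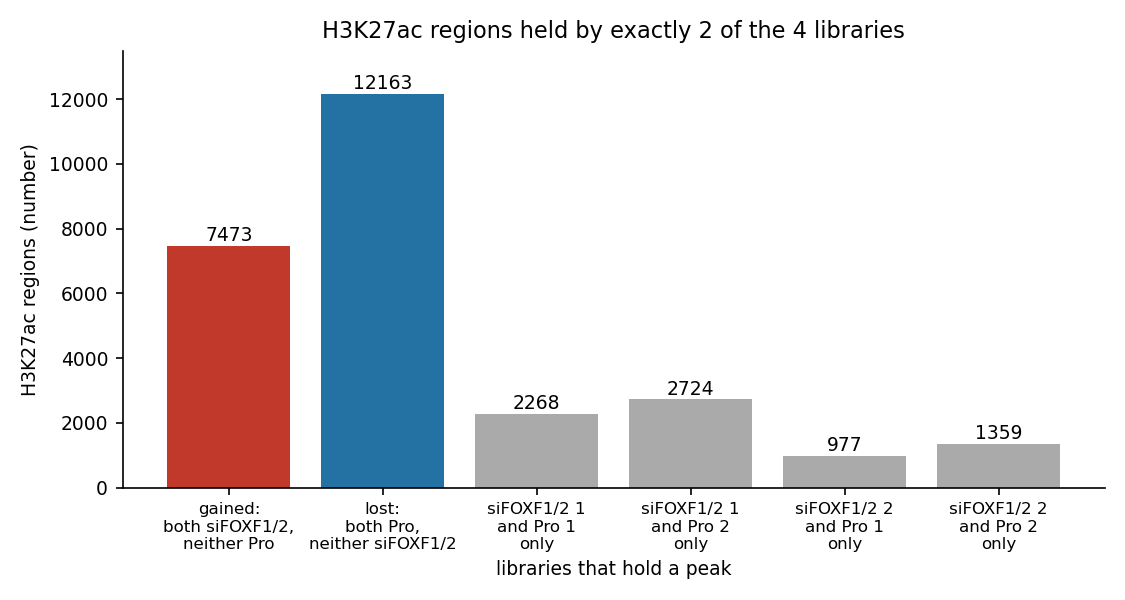
Number of H3K27ac regions (vertical axis) held by exactly 2 of the siFOXF1/2 and Pro libraries, by which libraries hold them. The 7473 gained and 12163 lost regions stand above the 4 mixed pairs (grey), which hold from 977 to 2724.

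Regions are given by position in build hg19, counted from 1, without the genes beside them, since no annotation of that build was used here. The fold values are the enrichment over local background that the authors' peak caller gave each peak, and none stands for no peak in a list. The region gained with the best ranks lay on chromosome 9 at 17090469 to 17091107, with a fold of 8.06 and 7.83 in siFOXF1/2 libraries, none in any of the 4 Sen libraries and none in Pro libraries. Next was chromosome 2 at 183195144 to 183196141, with 9.24 and 8.19 in siFOXF1/2, 5.20 and 10.0 in Sen replicates 1 and 2, and none in Pro. This region carried p-c-JUN at 12.6 and 16.7 in siFOXF1/2, at 13.5 and 15.9 in Sen and in neither Pro library. A region on chromosome 7 at 130977243 to 130978135 had 9.08 and 7.69 in siFOXF1/2, 6.67 and 4.47 in the same Sen libraries and none in Pro. Of the 10 leading gained regions, both these Sen libraries held 6, against 25.7% of all gained regions over the lists that include Sen, so the leaders do not stand for the set in this. Of the 10, 8 had p-c-JUN in both siFOXF1/2 libraries while 1 had it in a Pro library. Over all 7473 gained regions p-c-JUN lay on 54.2% and 59.2% in siFOXF1/2 replicates 1 and 2. In Pro replicates it lay on 5.08% and 7.53%. Over all 133972 regions the shares were 38.9% and 43.4% (siFOXF1/2) and 17.1% and 21.6% (Pro), but many of those regions held no siFOXF1/2 peak. Of all peaks of siFOXF1/2 replicate 1, p-c-JUN of siFOXF1/2 cells lay on 51.5% and 56.2%, near the shares of gained regions. That of Pro cells lay on 23.8% and 29.3% of these peaks, above the shares of gained regions.

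The region lost with the best ranks, on chromosome 11 at 44863173 to 44864633, had no peak in siFOXF1/2 cells and a fold of 6.56 and 6.63 in Pro cells. It was also without a peak in all 4 Sen libraries, although p-c-JUN was called there at 6.77 and 12.9 in siFOXF1/2 cells and at 5.28 and 7.54 in Pro cells. Chromosome 2 at 129105571 to 129106505 had no peak in siFOXF1/2 and 11.8 and 7.57 in Pro, again with none in Sen. Another of the 10 leaders, chromosome 10 at 43047640 to 43048709, had no peak in siFOXF1/2 and 8.94 and 9.18 in Pro. There Sen replicates 1 and 3 had a peak and replicates 2 and 4 had none. Of these 10 leaders, Sen replicates 1 and 2 both held 1, on chromosome 3 at 168524374 to 168525510, 1 of them held 5, and neither held 4. Over all 12046 regions lost in the lists that include Sen, both held 13.2%, 1 of them held 28.0% and neither held 58.8%. The leaders thus do not stand for the lost set in this. Of the 10, 2 had p-c-JUN in both siFOXF1/2 libraries. Taken singly, siFOXF1/2 replicates 1 and 2 had it on 18.3% and 22.0% of all lost regions.

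Both directions were spread over the genome. Lost regions outnumbered gained ones on all 23 chromosomes, from 1.28 lost per gained on chromosome 8 to 2.44 on chromosome 22, and the share of regions lost lay between 7.82% (chromosome 19) and 9.77% (chromosome X). In windows of 500 kb the median was 1 gained and 2 lost regions over 4805 windows. The window with most gained regions was chromosome 7 from 80000001 to 80500000, where 13 of 65 regions were gained and 5 lost. In the next, chromosome 1 from 59500001 to 60000000, 12 of 65 were gained and 1 lost, and 9 regions there were held by both siFOXF1/2 libraries and by no Pro or Sen library used. Losses were densest on chromosome 8 from 131000001 to 131500000, with 14 of 78 regions lost and 3 gained, and on chromosome 15 from 80500001 to 81000000, with 14 of 51 lost and 0 gained. In the chromosome 15 window the siFOXF1/2 libraries held 15 and 11 regions, Sen replicates 1 and 2 held 23 and 18, and the Pro libraries held 33 and 39. Of its regions, 10 were held by both Pro libraries and missing from both the siFOXF1/2 and these Sen libraries.

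To sort these differences into those of senescence and those of the knockdown, peaks of the 4 libraries and of Sen replicates 1 and 2 were joined into 150148 regions. Against Pro cells, Sen cells gained 5860 regions (3.9% of all) and lost 12572 (8.37%). These comparisons with Pro cells use the same 2 Pro libraries as those of siFOXF1/2 cells, which ties the classes to each other. A gain was called persisting when both siFOXF1/2 libraries held it, returned when neither did, and divided when 1 did, and losses were treated in the mirrored way. Of the gains, 1888 persisted (32.2%; 1.26% of all regions), 1428 were divided (24.4%) and 2544 returned to the proliferating state (43.4%; 1.69% of all regions). Of the losses, 7083 persisted (56.3%; 4.72% of all regions), 3377 were divided (26.9%) and 2112 returned (16.8%; 1.41% of all regions). Persisting gains made up 25.7% of the 7335 regions gained in siFOXF1/2 cells over these lists, and persisting losses 58.8% of the 12046 lost. These fates depended on the Sen libraries. With replicates 3 and 4 in place of 1 and 2, 36.2% of gains persisted and 41.2% returned. Of the losses, 35.0% then persisted and 38.6% returned, over lists of full length of which these 2 Sen lists are the shortest. With all lists limited to 26694 peaks, the same replicates gave 23.6% of gains persisting and 52.6% returned. Losses then persisted at 45.1% and returned at 28.1%, in the same order as with replicates 1 and 2. When all 4 Sen libraries had to hold a gain, 59.97% of the 657 such gains persisted and 18.1% returned, so the order of the gains turned round. They also depended on single libraries. Without Sen replicate 1, 18.1% of gains persisted and 63.2% returned, and 37.1% of losses persisted and 35.2% returned; without Sen replicate 2, 16.8% of gains persisted and 63.6% returned. Without Pro replicate 2, gains persisted at 37.8% and returned at 37.1%, and without Pro replicate 1 at 37.4% and 37.9%, so neither fate of the gains stood clearly above the other. Returned losses made up 10.4% and 10.9% without Pro replicates 1 and 2. With 1 siFOXF1/2 library no change can be divided: without replicate 2, 37.1% of losses and 54.0% of gains returned, and without replicate 1, 23.4% of losses and 57.4% of gains did.

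**Figure D2:**
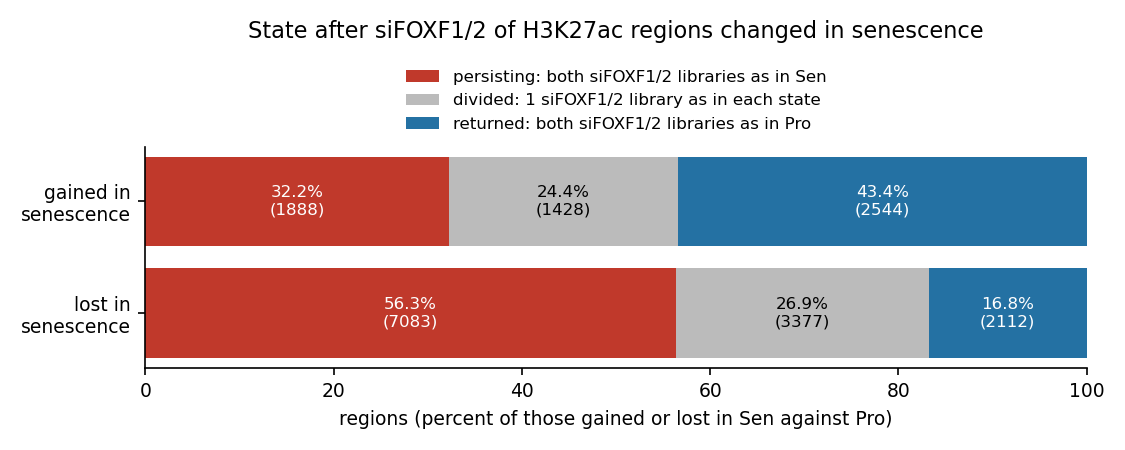
Share of the H3K27ac regions gained (top) and lost (bottom) in Sen against Pro cells, by their state in the 2 siFOXF1/2 libraries; numbers of regions stand in brackets. Gains returned (43.4%) more often than they persisted (32.2%), and losses persisted (56.3%) more often than they returned (16.8%).

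Among persisting gains, the leading region lay on chromosome 2 at 157211925 to 157213459. Its H3K27ac fold was 6.39 and 5.17 in siFOXF1/2, 6.98 and 5.26 in Sen replicates 1 and 2, and none in Pro libraries. FOXF1 was called there at 4.84 and 5.09 in Sen cells, and p-c-JUN at 15.8 and 16.7 in siFOXF1/2 and 9.63 and 14.5 in Sen cells, so that acetylation and p-c-JUN were both present after the knockdown of a factor that had been bound there. A second region of this kind, on chromosome 3 at 115039221 to 115041152, had 5.86 and 4.34 in siFOXF1/2, 5.77 and 5.53 in Sen and none in Pro cells, with FOXF1 at 5.68 and 7.90 in Sen cells. All 5 leaders of the persisting gains had p-c-JUN in both siFOXF1/2 libraries. Taken singly, these libraries had it on 59.8% and 66.3% of the whole class.

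Among returned gains, chromosome 7 at 124282963 to 124283968 came first, with no H3K27ac peak in siFOXF1/2, a fold of 6.38 and 5.70 in Sen replicates 1 and 2 and no peak in Pro libraries. FOXF1 was bound there in Sen cells at 7.07 and 12.6, and p-c-JUN had no peak in siFOXF1/2 cells and 1 of 5.76 in Sen replicate 1. Sen replicates 3 and 4 had no H3K27ac peak in this region. Chromosome 5 at 141968764 to 141969678 was likewise empty in siFOXF1/2, had 4.89 and 4.90 in Sen replicates 1 and 2 and was empty in Pro, with FOXF1 at 6.94 and 6.82. Another, chromosome 15 at 49367751 to 49368554, had no peak in siFOXF1/2, 7.43 and 8.50 in Sen replicates 1 and 2, and no peak in Pro. There p-c-JUN was in neither siFOXF1/2 library, and at 5.79 and 5.67 in Sen cells. None of the 5 leaders of the returned gains had p-c-JUN in a siFOXF1/2 library (0 of 5), against 12.9% and 19.7% of the whole class.

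Returned losses were led by chromosome 4 at 20204434 to 20205799, with 6.32 and 5.22 in siFOXF1/2, no peak in the 4 Sen libraries and 6.65 and 5.48 in Pro. The p-c-JUN fold there was 10.4 and 12.1 in siFOXF1/2, 9.35 and 5.49 in Sen and 5.94 and 9.61 in Pro cells. Next, chromosome 3 at 12799480 to 12800293 had 7.79 and 9.01 in siFOXF1/2, no peak in Sen replicates 1 and 2, 1 of 4.27 in Sen replicate 3, and 6.07 and 7.63 in Pro. Both regions were thus held by siFOXF1/2 and Pro cells, whereas persisting losses, such as the chromosome 11 and chromosome 2 leaders of the lost set, were empty in siFOXF1/2 and Sen cells alike.

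The last 2 classes differed in siFOXF1/2 cells from both other states. Held by both siFOXF1/2 libraries and by no Pro or Sen library used were 3272 regions (2.18% of all), and absent from both siFOXF1/2 libraries but held by the Pro and Sen libraries were 1594 (1.06%). The class held in siFOXF1/2 alone was led by the chromosome 9 region given above, and included chromosome 17 at 39334635 to 39335850, with 6.65 and 7.27 in siFOXF1/2 and none in Sen replicates 1 and 2 or Pro. That region had peaks of 5.76 and 6.40 in Sen replicates 3 and 4, so its absence from Sen cells did not extend to the second deposit. The class absent from siFOXF1/2 alone was led by chromosome 12 at 11838124 to 11839300, without a peak in siFOXF1/2 and with 5.09 and 4.09 in Sen and 5.13 and 4.44 in Pro cells. Sen replicates 3 and 4 had no H3K27ac peak there, so this region too was absent from Sen cells of the second deposit. FOXF1 was bound there in Sen cells at 7.31 and 5.85. On chromosome 22 at 21811139 to 21811832 the siFOXF1/2 libraries had no H3K27ac peak, against 7.80 and 6.77 in Sen and 6.72 and 7.71 in Pro cells. The p-c-JUN fold at this position was 4.04 and 9.94 in siFOXF1/2 cells and 15.7 and 18.8 in Sen cells, where FOXF1 stood at 9.06 and 10.6. Of the 5 leaders of this class, 3 had FOXF1 in both Sen libraries, while over all its 1594 regions the share was 14.8%, against 7.15% of all regions.

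Whether a gain persisted went with p-c-JUN. A p-c-JUN peak of siFOXF1/2 cells lay on 59.8% and 66.3% of persisting gains (replicates 1 and 2) and on 12.9% and 19.7% of returned gains, against 35.9% and 40.3% of all regions. In Sen cells, where both kinds of gain were acetylated, p-c-JUN lay on 60.4% and 69.7% of persisting and on 26.7% and 38.4% of returned gains. In Pro cells it lay on 6.14% and 9.59% of persisting and 1.26% and 1.97% of returned gains. FOXF1 did not separate the classes in this way. Its peaks in Sen replicates 1 and 2 lay on 8.26% and 34.6% of persisting gains and on 10.6% and 32.7% of returned gains, and the gap between these 2 libraries was wider than that between the classes. Persisting gains were wider (median 866 bp) than returned gains (537 bp), which favours overlap with any list. In windows of 500 bp round the summit of Sen replicate 1, p-c-JUN of siFOXF1/2 cells was found at 55.6% and 62.1% of persisting gains. Of returned gains it was found at 12.5% and 18.9%. By definition persisting gains hold siFOXF1/2 peaks and returned gains hold none. Round the summits of siFOXF1/2 replicate 1, all regions of that library had it at 50.5% and 55.2%, a little below persisting gains. The part of siFOXF1/2 acetylation itself in the contrast was not tested.

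Persistence also went with strength. In quartiles of −log10 q in Sen replicate 1, weakest to strongest, 21.0%, 27.4%, 33.0% and 47.5% of gains persisted. Within the weakest quartile p-c-JUN of siFOXF1/2 cells lay on 58.3% and 63.8% of persisting and 10.9% and 16.1% of returned gains, and within the strongest on 62.1% and 68.7% of persisting and 18.4% and 25.8% of returned gains.

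For losses the contrast ran with the state of the siFOXF1/2 cells. On returned losses, where siFOXF1/2 cells were acetylated and Sen cells were not, p-c-JUN peaks lay at 62.2% and 67.2% in siFOXF1/2, 47.8% and 55.6% in Sen and 26.5% and 34.9% in Pro cells. On persisting losses the shares were 16.7% and 19.7% in siFOXF1/2, 15.0% and 19.0% in Sen and 7.96% and 11.3% in Pro cells. FOXF1 of Sen cells was at 3.60% and 13.8% of returned and 2.06% and 7.37% of persisting losses, both below the 8.14% and 22.3% of all regions. Regions held in siFOXF1/2 alone had p-c-JUN at 50.9% and 55.2% in siFOXF1/2, 31.8% and 39.7% in Sen and 3.24% and 5.26% in Pro cells. They had FOXF1 of Sen cells at 0.856% and 5.68%. In windows of 500 bp round the summit of siFOXF1/2 replicate 1, p-c-JUN of siFOXF1/2 cells lay at 49.2% and 53.1% of them. All regions of that library had it at 50.5% and 55.2%, so this class showed no excess. Regions absent from siFOXF1/2 alone had p-c-JUN at 19.0% and 23.7% in siFOXF1/2 and 30.8% and 44.5% in Sen cells, and FOXF1 of Sen cells at 16.8% and 41.5%. The regions absent from siFOXF1/2 alone were wider (median 827 bp) than all regions (576 bp). In windows of 500 bp round the summit of Sen replicate 1, FOXF1 lay at 14.7% and 38.1% of them, against 11.3% and 31.5% of all regions of that library, a smaller excess than over whole regions. Regions held in siFOXF1/2 alone had FOXF1 of Sen cells at 0.703% and 5.35% in windows round the summit of siFOXF1/2 replicate 1, against 9.75% and 26.9% of all regions of that library. Over whole regions FOXF1 was more frequent still, at 23.8% and 54.6%, on the 29186 regions held by all 6 libraries, which are the widest (median 1350 bp). In windows of 500 bp round the summit of Sen replicate 1, FOXF1 lay at 18.5% and 45.9% of them. This too was above the regions absent from siFOXF1/2 alone, whose excess was thus only over all regions of that library.

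**Figure D3:**
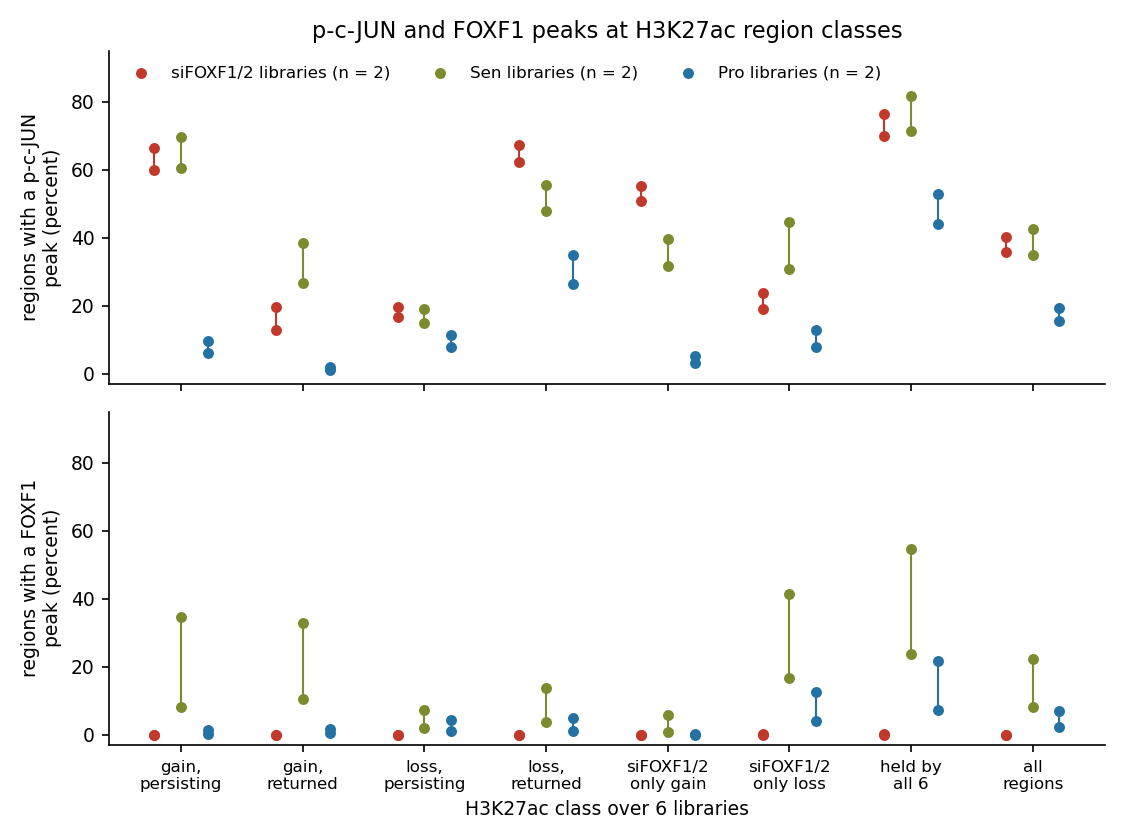
Percent of regions of each H3K27ac class with a p-c-JUN peak (upper panel) or a FOXF1 peak (lower panel); each point is 1 library of siFOXF1/2 (red), Sen (green) or Pro (blue) cells, and a line joins the 2 replicates. Persisting gains and returned losses have p-c-JUN in siFOXF1/2 cells at 59.8% to 67.2%, and returned gains and persisting losses at 12.9% to 19.7%.

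The behaviour of p-c-JUN itself was followed at regions where both Sen libraries had a p-c-JUN peak. Over all H3K27ac regions, 81.8% of 47571 such regions had it in both siFOXF1/2 libraries and 6.46% in neither. At persisting gains p-c-JUN was present in both siFOXF1/2 libraries at 83.4% of 1066 regions and in neither at 5.16%. At returned gains it was present in both at 39.0% of 593 regions and in neither at 34.1%, and at regions absent from siFOXF1/2 alone in both at 48.7% of 429 and in neither at 31.0%. In both classes that were without acetylation in siFOXF1/2 and with it in Sen cells, p-c-JUN was thus missing more often than over all regions. This held with and without FOXF1. Neither siFOXF1/2 library had p-c-JUN at 42.6% of the 101 returned gains bound by FOXF1 in both Sen libraries and at 27.6% of the 257 bound in neither. For regions absent from siFOXF1/2 alone the shares were 34.6% of 104 and 25.7% of 171. Over all regions they were 6.21% with FOXF1 in both Sen libraries and 6.42% with it in neither. H3K27ac and p-c-JUN were read in separate libraries of the same knockdown, and which changed first was not tested.

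Sorted the other way, by binding, 1479 senescence gains had p-c-JUN in both Sen and both siFOXF1/2 libraries, of which 60.1% persisted and 15.6% returned. Of the 337 gains with p-c-JUN in both Sen and neither siFOXF1/2 library, 16.3% persisted and 59.9% returned, close to the 16.8% and 61.3% of 2303 gains with p-c-JUN in none of these libraries. Gains bound in both Sen libraries by FOXF1 but by p-c-JUN in neither were few, 101, and 77.2% of them returned while 6.93% persisted. Of the 2076 gains with neither factor in any Sen library, 55.1% returned and 21.0% persisted. With both factors bound in Sen cells (287 gains), 35.2% returned and 40.1% persisted, and with p-c-JUN alone (1107 gains) 23.2% returned and 50.7% persisted. Losses without p-c-JUN in any of the siFOXF1/2 and Sen libraries (6939) persisted at 71.8% and returned at 7.19%, against 30.7% and 37.0% of the 433 losses with p-c-JUN in both siFOXF1/2 libraries and neither Sen library.

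A Sen library not used for the call shows how many gains are missing between 2 libraries of the same state. Lists were limited to their 60862 best peaks, and gains were called with 1 Sen library as regions absent from both Pro libraries. With Sen replicate 1, 14777 regions were called (13.2% of 112368), of which the siFOXF1/2 libraries held 33.2% and 34.4% and Sen replicate 2 held 45.3%. With Sen replicate 2, 18124 were called (16.1%), of which the siFOXF1/2 libraries held 25.3% and 27.5% and Sen replicate 1 held 36.9%. Each siFOXF1/2 library thus held fewer of these gains than a second Sen library did. Most single-list gains were missing from the second Sen library too, so a return to the proliferating state cannot be told from this disagreement at a single region. Over lists of full length the order was not the same in both directions: siFOXF1/2 libraries held 29.0% and 24.6% of 20768 gains of Sen replicate 1 (13.8% of 150148 regions), against 28.2% in Sen replicate 2, and 29.8% and 26.5% of 13078 gains of Sen replicate 2 (8.71%), against 44.8% in Sen replicate 1.

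The shortfall was then read by FOXF1 and p-c-JUN in Sen cells, at equal length. Of gains with p-c-JUN in both Sen libraries and FOXF1 in neither, siFOXF1/2 libraries held 53.7% and 52.9% of 2705, against 49.8% in Sen replicate 2, and 49.0% and 49.1% of the 2768 called with Sen replicate 2, against 48.7% in Sen replicate 1. Over this state as a whole no shortfall was seen. In the strongest quartile called with Sen replicate 2, however, the siFOXF1/2 libraries held 55.8% and 58.2% of 858, against 65.5% in Sen replicate 1, and over lists of full length they held 57.4% and 49.4% of 1811 called with Sen replicate 2, against 61.1%. Of gains with both factors in both Sen libraries, siFOXF1/2 libraries held 44.8% and 47.1% of 681, against 68.7% in Sen replicate 2, and 45.9% and 50.6% of 577, against 81.1% in Sen replicate 1. Of gains with FOXF1 and no p-c-JUN, they held 10.7% and 17.6% of 205, against 57.1%, and 8.87% and 15.8% of 203, against 57.6%. Of gains with neither factor, they held 20.8% and 21.9% of 6063, against 32.7%, and 13.5% and 15.0% of 9153, against 21.6%. At equal length a shortfall was thus present for FOXF1-bound gains, with or without p-c-JUN. In percentage points it was smaller for gains with neither factor, but present there too. The second Sen library itself held fewer of those, 32.7% against 68.7% with both factors for Sen replicate 1. Relative to these shares the shortfall was much alike in the 2 states. In each of 4 quartiles of strength of the calling library, both siFOXF1/2 libraries held fewer of the gains of these 3 states than the second Sen library did. The larger siFOXF1/2 share minus that of the second Sen library lay between -8.45 and -67.8 percentage points for FOXF1-bound gains (31 to 343 gains each) and between -1.77 and -17.2 for gains with neither factor (930 to 2935). At a −log10 q of 5 or more the order was not the same in both directions. Of 829 gains of Sen replicate 1 with both factors, siFOXF1/2 libraries held 41.0% and 29.7%, against 35.1% in Sen replicate 2. Of 3340 with neither factor they held 19.6% and 12.1%, against 11.0%. Called with Sen replicate 2, they held 47.1% and 37.5% of 344 with both factors, against 84.6% in Sen replicate 1. With neither factor they held 21.8% and 14.8% of 1065, against 34.6%. At this cutoff Sen replicate 2 kept 20421 peaks and siFOXF1/2 replicates 1 and 2 kept 44202 and 30209. The part of list length in this was not tested. Over lists of full length, siFOXF1/2 libraries held 18.4% and 15.1% of 11581 gains of Sen replicate 1 with neither factor. These lay on either side of the 17.9% in Sen replicate 2, the shortest of these lists. Of 7083 such gains of Sen replicate 2 they held 18.0% and 15.7%, against 29.3% in Sen replicate 1. With FOXF1 and no p-c-JUN they held 12.3% and 12.7% of 220 gains of Sen replicate 1, against 45.9%. Called with Sen replicate 2 it was 12.6% and 14.7% of 143, against 70.6%. At the stricter cutoff these FOXF1 shares were 10.1% and 4.73% of 169, against 23.7%, and 7.27% and 5.45% of 55, against 72.7%.

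The same reading with Sen replicates 3 and 4, of the second deposit, gave another picture. With 26694 peaks a list, siFOXF1/2 libraries held 44.0% and 45.1% of 716 gains of Sen replicate 3 with both factors, against 57.1% in Sen replicate 4, and 37.1% and 34.3% of 2073 with p-c-JUN alone, against 51.3%. With FOXF1 alone they held 14.5% and 22.4% of 76, against 42.1%, and with neither factor 9.17% and 11.0% of 3687, against 32.1%. A shortfall was present in every state, p-c-JUN alone included. Called with Sen replicate 3, it was larger in points with neither factor than with both factors, the reverse of the order with Sen replicates 1 and 2. Over lists of full length, where Sen replicate 4 is the shortest, siFOXF1/2 libraries held 28.0% and 24.0% of 10181 gains of Sen replicate 3, against 17.0% in Sen replicate 4, and 37.3% and 30.9% of 3658 gains of Sen replicate 4, against 47.3% in Sen replicate 3. These Sen libraries differ from the siFOXF1/2 libraries by deposit as well as by knockdown, which cannot be told apart.

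**Figure D4:**
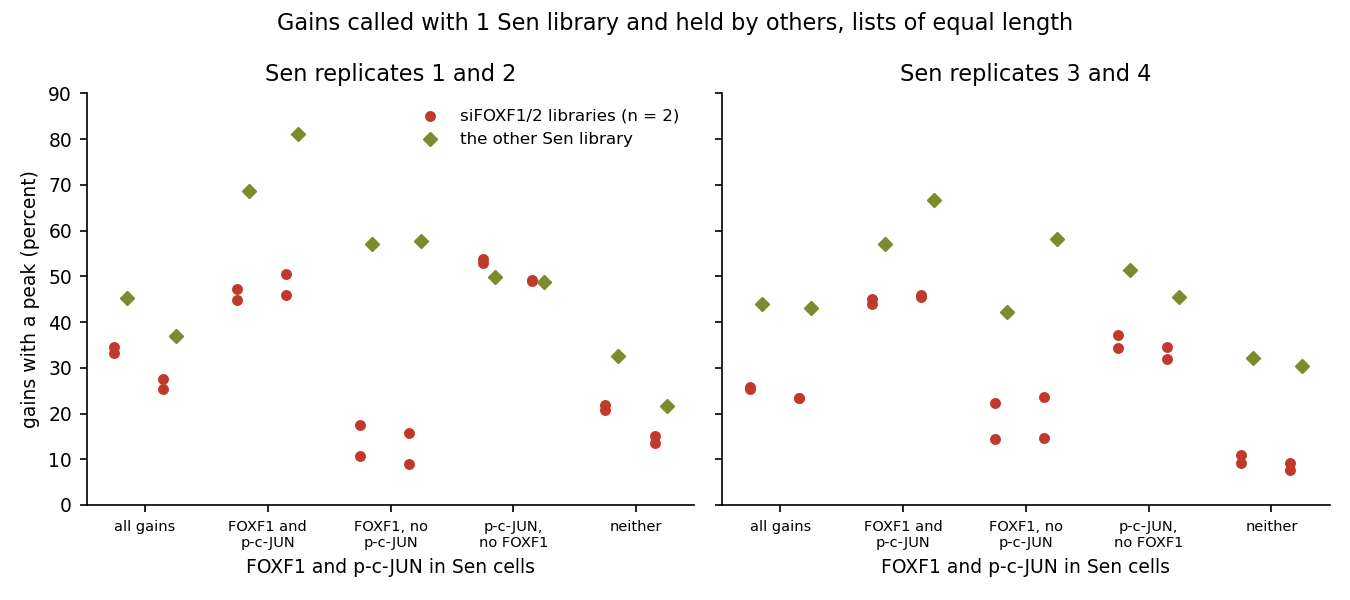
Percent of gains called with 1 Sen library against both Pro libraries that siFOXF1/2 libraries (red circles) and the second Sen library (green diamonds) hold, by FOXF1 and p-c-JUN in Sen cells, over lists of equal length; within each state the left column is called with the lower-numbered Sen replicate and the right with the higher. With Sen replicates 1 and 2 (left panel) the siFOXF1/2 libraries reach the second Sen library where p-c-JUN is alone (49.0% to 53.7% against 48.7% and 49.8%) and stay below it where FOXF1 is bound and where neither factor is; with Sen replicates 3 and 4 (right panel) they stay below it in every state.

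Losses were read likewise. Of 11046 losses called with Sen replicate 1 at equal length (9.83% of regions), siFOXF1/2 libraries held 39.8% and 33.3%, against 21.1% in Sen replicate 2. Of 15533 called with Sen replicate 2 (13.8%), they held 50.7% and 43.2%, against 43.9% in Sen replicate 1. Over lists of full length siFOXF1/2 libraries held 40.0% and 26.1% of 14390 losses of Sen replicate 1 (9.58%), against 12.6% in Sen replicate 2, and 56.3% and 41.8% of 26607 of Sen replicate 2 (17.7%), against 52.7% in Sen replicate 1. At either length the siFOXF1/2 libraries held more of the Pro acetylation than a second Sen library in the first case, and in the second their values lay on either side of it.

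On average over whole lists, siFOXF1/2 libraries shared about as much with Sen as with Pro libraries. The Jaccard index, the bases covered by both of 2 lists over those covered by either, averaged 0.395 between siFOXF1/2 and Sen libraries (0.346 to 0.462) and 0.396 between siFOXF1/2 and Pro libraries (0.368 to 0.426), at equal length. The 2 siFOXF1/2 libraries had 0.491 with each other, Sen replicates 1 and 2 had 0.417 and the Pro libraries had 0.561. Sen replicate 1 was nearer to both siFOXF1/2 libraries than either Pro library was, and Sen replicate 2 was farther from both, so the Sen average rests on replicates that disagree. With Pro replicates 1 and 2, Sen replicate 1 had 0.430 and 0.429, against 0.462 and 0.423 with siFOXF1/2 replicates 1 and 2. Sen replicate 2 had 0.311 and 0.313 with Pro, against 0.346 and 0.350 with siFOXF1/2. Its values were thus low with both groups, and the near tie of the averages does not place siFOXF1/2 midway. A p-c-JUN peak of Sen cells, from both libraries, lay on 44.3% and 45.3% of siFOXF1/2 peaks, 43.0% and 43.9% of Sen peaks and 40.6% and 38.8% of Pro peaks. The difference between siFOXF1/2 and Pro was 5.13 ± 1.01 percentage points (SE, n = 2 in each group; p = 0.33 by exact two-sided permutation, as low as 2 libraries a group can go). A FOXF1 peak of both Sen libraries lay on 9.80% and 10.3% of siFOXF1/2 peaks, 11.4% and 12.2% of Sen peaks and 10.4% and 9.89% of Pro peaks. The FOXF1 share of siFOXF1/2 peaks overlapped that of Pro peaks and lay below that of Sen peaks, with a difference of -1.71 ± 0.482 points (SE, n = 2 in each group; p = 0.33 by exact two-sided permutation). The p-c-JUN share of siFOXF1/2 peaks was above both Sen and Pro values over whole lists only. At equal length it was 52.9% and 49.3% in siFOXF1/2, 51.2% and 43.9% in Sen and 48.1% and 47.4% in Pro libraries, and siFOXF1/2 minus Pro was 2.82 ± 1.75 points. Where a p-c-JUN summit had to lie inside the peak it was 36.1% and 33.4% in siFOXF1/2, 35.3% and 31.0% in Sen and 34.2% and 32.4% in Pro libraries, with 1.48 ± 1.62 points between siFOXF1/2 and Pro, so the groups overlapped.

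**Figure D5:**
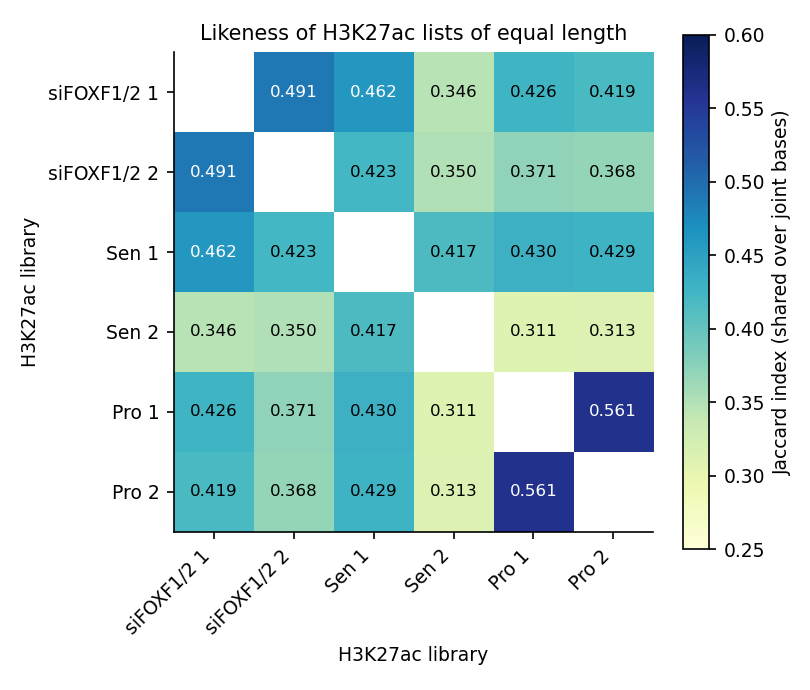
Jaccard index between H3K27ac lists of 60862 peaks each, for the siFOXF1/2, Sen and Pro libraries; darker squares are more alike. The siFOXF1/2 libraries have 0.346 to 0.462 with Sen and 0.368 to 0.426 with Pro libraries, and the Pro pair has the highest value, 0.561.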

How the data were processed

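Peak lists of 20 CUT&RUN libraries were used: 8 of H3K27ac, 6 of FOXF1 and 6 of p-c-JUN. Bowtie2 2.3.4.1, SAMtools 1.9, deepTools 3.1.1, MACS2 3.0.0 and build hg19 come from the submitters' processing notes, which as used here give no parameters. Each library was called alone. The deposited lists give a fold enrichment, a ratio to local background, and −log10 p and −log10 q values for each peak as the authors' caller wrote them. They were used to describe and order the peaks within each list, and differences in their size between lists were not measured. Ranks over several lists picked the leading regions, and as an alternative 1 cutoff, a −log10 q of at least 5, was applied to every list. A control library, the number of mapped reads and the use of the yeast spike-in are not given in the sources used here.

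Only peaks on chromosomes 1 to 22 and on X entered, leaving out 321 of 1002292 (0.0320%), and joined by an overlap of at least 1 bp (Python 3.11.15, NumPy 2.4.6). On simulated lists 100% of 19722 planted regions were recovered. The background of fragments was taken from whole pileups solved within 0.0005 of −log10 p. Groups came from titles. p-values come from exact two-sided permutation over libraries and measure only the spread between them, which may be technical. Regions are not replicates, so no p was computed over regions. The leading regions are the 10 of each direction and 5 of each class with the best worst rank of −log10 q in the libraries that hold them, with the 5 densest windows of 500 kb per direction. Of these, a few are described. The samples, classes and lists were chosen with earlier results of these data known. Positions relative to genes, gene lists and cell type markers were planned and not run, since an hg19 annotation was not used here. Alternatives were a −log10 q of at least 5, joining only where 50% of the shorter peak was shared, lists of equal length, other Sen libraries, summits inside regions, the widest peaks, each replicate left out and a replicate block. Windows of 500 bp, strength quartiles, splits by FOXF1 and p-c-JUN and equal lengths with Sen replicates 3 and 4 were added after seeing the data.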

Additional observations from a re-analysis of the deposited data

How the results depend on the processing

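At −log10 q of 5 or more, 3657 regions were gained in siFOXF1/2 against Pro cells, 690 gains of senescence persisted and 937 returned, 1287 losses returned, 1709 regions were held in siFOXF1/2 alone and 681 were absent from it alone. With Sen replicates 3 and 4, 627 gains persisted and 713 returned, 10703 losses persisted and 11818 returned, and 5317 regions were held in and 253 absent from siFOXF1/2 alone. At equal length these Sen libraries left 1058 persisting and 2362 returned gains, and 2993 persisting and 1867 returned losses. They left 1921 regions held in and 548 absent from siFOXF1/2 alone. When all 4 Sen libraries were required, 394 gains persisted, 119 returned and 125 regions were absent from siFOXF1/2 alone. The cause of these shifts was not tested. Without 1 replicate at a time, gained regions numbered 10238 to 22374 and lost regions 15088 to 28286. Persisting gains then numbered 2482 to 3515, returned gains 3017 to 13334, persisting losses 7658 to 19589 and returned losses 2754 to 9437. Regions held in siFOXF1/2 alone ranged from 3831 to 14130 and those absent from it alone from 2044 to 4404. Fewer libraries to satisfy raise each count by construction.

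The mean share of single-list changes that siFOXF1/2 libraries held moved to 33.8% for gains of Sen replicate 1 at equal length, and for gains of Sen replicate 2 to 33.3% at −log10 q of 5 or more and 34.1% with Sen replicate 4 in its place. For losses it moved to 53.6% with Sen replicate 3 in place of replicate 1 and to 61.6% with Sen replicate 4 in place of replicate 2. The p-c-JUN contrast of persisting minus returned gains kept its sign in 500 bp windows, at 27.9 and 28.1 points for p-c-JUN of Sen cells and 43.1 and 42.1 for that of siFOXF1/2 cells, with 47.3 for siFOXF1/2 at equal length. That of returned minus persisting losses, for p-c-JUN of siFOXF1/2 cells, was 44.6 at equal length and 44.0 and 43.6 in windows.

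Replicate numbers did not pair the libraries (correlation of replicate 1 minus replicate 2 between siFOXF1/2 and Pro, 0.0099 over regions). With a replicate block the log2 difference in peak number was -0.15 ± 0.161 (SE; exact permutation p = 1), the p-c-JUN share 5.13 ± 1.38 points (exact permutation p = 0.5), and the region counts were the same by construction, such as 7473 gained. Requiring all 4 Sen replicates for single-list shares, and the planned gene lists, were not run. Peak calls limit what is seen: a region without a peak may hold acetylation under the caller's threshold, and intervals cannot be given without read counts.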
